A study of Homo sapiens with 6 samples.

Results

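The HOX, SOX, FOX, LHX, PAX and TBX genes and the sine oculis homeobox genes (such as SIX2 and SIX5) encode sequence-specific transcription factors of development, each family with its own DNA-binding domain. They were taken by gene symbol, that is, by one of these 7 family names followed by its letters and number, wherever such a symbol stood in the table of translational efficiency (TE) or in the table of ribosome occupancy. This gave 77 of the 10779 genes found in either table, out of 139 human genes with such symbols in GENCODE 44. The TE table held 42 of them among 8121 genes and the occupancy table held 70 among 9570 transcripts, with 35 in both. Ribosome profiling sequences the mRNA fragments that ribosomes protect from nuclease (RPFs). It was carried out in HEK293, a human embryonic kidney cell line, in cells labelled as treated with a control siRNA, and gave 3 RPF libraries and 3 total RNA libraries made from the same lysates. The living cells were treated with cycloheximide, which stalls ribosomes, at 100 µg/ml before lysis, and the lysis buffer held the same concentration. No other condition was profiled. All values therefore describe 1 cell line in 1 state, and the replicate error is the spread between 3 replicates. Since bulk lysates were used, fewer cells with an mRNA and less mRNA per cell cannot be told apart.

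HOX proteins assign position along the body axis. Their genes lie in 4 clusters, and each protein binds DNA through a homeodomain of 60 residues, whose recognition helix lies in the major groove. Sine oculis and LHX proteins and some PAX proteins also carry a homeodomain, FOX proteins carry a forkhead (winged helix) domain, SOX proteins an HMG box that bends DNA, and TBX proteins a T-box. HEK293 cells are known to express many HOX genes and several genes of kidney development.

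In 20 of 28 HOX mRNAs the codon with the highest occupancy lay between homeodomain positions 48 and 56, in the recognition helix. It did so in 10 of the 18 whose highest codon lies in no exact 30-mer shared with another gene. Overlapping genes on the same strand were not counted as other genes. The 30 bases that encode homeodomain residues 47 to 56 are shown first, 5′ to 3′ on the coding strand, for HOX genes with a high peak there and for SIX2 and SIX5. Capitals mark the codon with the highest occupancy of the whole coding sequence (CDS).

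HOXA10: atctggtttcagaaccgcaggATGaaactg

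HOXB9: atctggtttcagaaccggcggATGaaaatg

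HOXB6: atatggttccagaaccgacgcATGaagtgg

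HOXB7: atttggtttcagaaccggcgcATGaagtgg

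HOXA4: atctggTTTcagaaccggaggatgaagtgg

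HOXB2: gtctggTTTcagaaccggcgcatgaagcac

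SIX2: aacTGGttcaagaaccggcggcagcgcgac

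SIX5: aacTGGttcaagaaccggcgacagcgcgac

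In HOXA10, HOXB9, HOXB6 and HOXB7 the capitals fall on the methionine codon at homeodomain position 54, directly after the paired arginine codons of the recognition helix. In HOXA4 and HOXB2 the highest codon was the phenylalanine codon at position 49, and in SIX2 and SIX5 it was the tryptophan codon at position 48. Each stretch lies within 1 coding exon of GRCh37, for example HOXA10 at chr7:27211578-27211607 on the minus strand, HOXB9 at chr17:46700295-46700324 on the minus strand, HOXA4 at chr7:27168997-27169026 on the minus strand and SIX2 at chr2:45235713-45235742 on the minus strand.

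The families were represented unevenly. Of 39 HOX genes, 31 were in at least 1 table, with 10 of 11 in the HOXA cluster, 9 of 10 in HOXB, 6 of 9 in HOXC and 6 of 9 in HOXD. The HOX genes in neither table were HOXA2, HOXB1, HOXC10, HOXC11, HOXC12, HOXD1, HOXD10 and HOXD12. The other families had 21 of 45 FOX genes, 8 of 19 SOX genes, 5 of 6 sine oculis genes, 5 of 13 TBX genes, 4 of 8 LHX genes and 3 of 9 PAX genes. No LHX or PAX gene was in the TE table. Of 10 genes chosen as marks of HEK293 cells, 9 were listed (among them KRT8, KRT18, VIM, NEFL, NEFM, INA, LHX1 and EYA1), while none of the blood, hepatocyte and endothelial markers was, and COL1A1 was the only 1 of 4 fibroblast markers. Recovered from the values, the CDS reads of the 70 mRNAs ranged from 26 to 4611 with a median of 440, against a median of 1821 for all transcripts. Their mRNA abundance, read from the worth of a read in each transcript, had a median of 0.251 times that of the median transcript.

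TE was compared first, to ask which of these mRNAs carried more or fewer RPFs per mRNA than a typical gene. Across the 42 genes the median TE was 0.438, beside 0.385 for all genes. By limma with Benjamini-Hochberg adjustment over all 8121 genes, 19 of the 42 (45.2%) were higher than the median of all values, beside 44.7% of all genes, and 13 (31.0%) were lower, beside 44.6%. In either direction 89.3% of all genes were called. With so many genes called, a test for a difference of over 2-fold (limma treat) is more telling. It placed 10 (23.8%) above, beside 23.3% of all genes, and 3 (7.14%) below, beside 18.2%. The share of highly translated mRNAs was thus near the background. No test was made of the family shares.

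**Figure D1:**
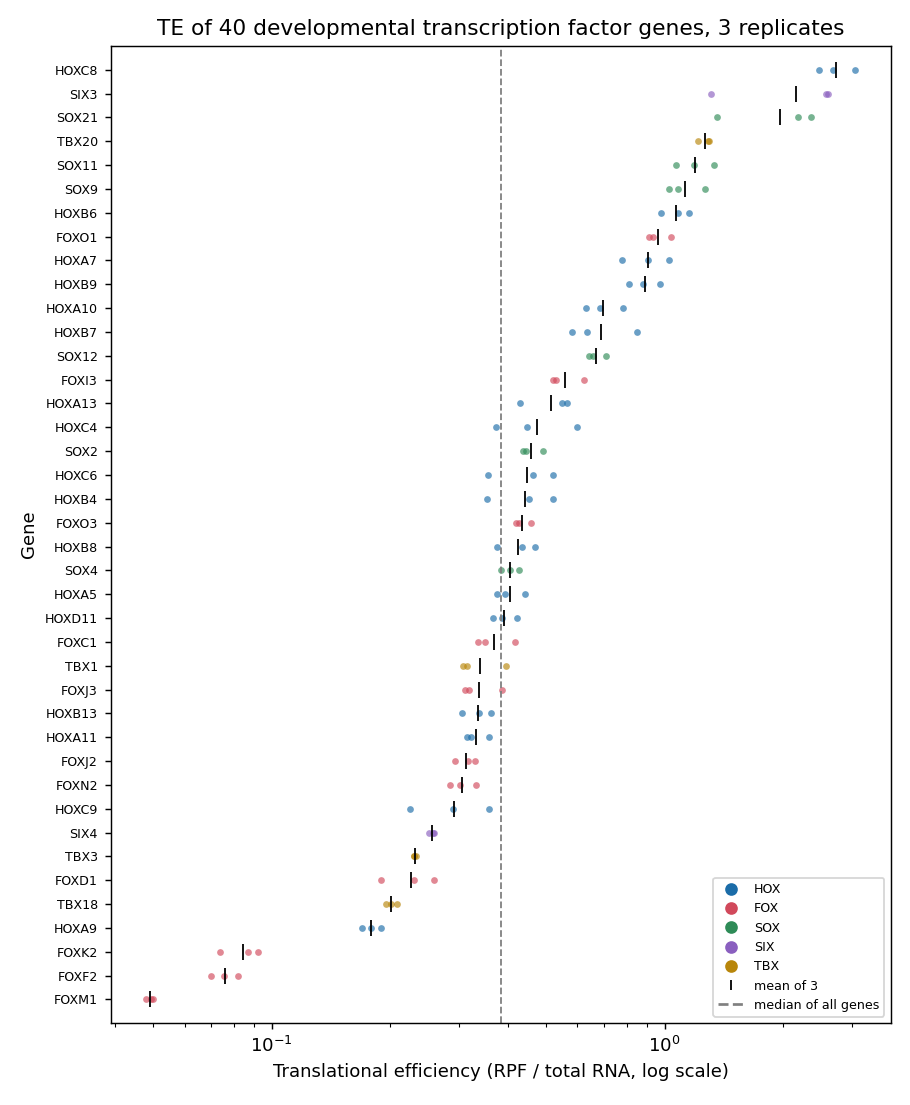
TE of 40 of the 42 genes in each of the 3 replicates (points, log scale), with the mean of the 3 (bar) and the median of all genes (dashed line). HOXC8 stands highest at 2.74, SIX3 and SOX21 have 1 low replicate each, and FOXK2, FOXF2 and FOXM1 lie apart at the bottom, at 0.0843, 0.0760 and 0.0490.

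HOXC8, a gene of the middle of the HOXC cluster, had the highest TE of the group, with 3.05, 2.47 and 2.69 in the replicates. Its mean of 2.74 ± 0.294 (SD, n = 3) was 7.14 times the median (log2 difference 2.80 ± 0.07 SE, limma adjusted p = 3.15e-06). SIX3, a homeobox gene of eye and forebrain, followed with 2.60, 2.58 and 1.31, and SOX21, an HMG-box gene of neural progenitors, with 2.36, 2.19 and 1.36. In both genes replicate 3 was low and the other two were close together, and all 3 values stayed above the median of all genes. TBX20, a T-box gene of the heart, had 1.29, 1.22 and 1.29, and 31.2% of its CDS 30-mers also occur in another annotated gene. SOX11, which drives neuronal maturation, had 1.07, 1.19 and 1.33. These 5 were each over 2-fold above the median, with limma treat adjusted p between 1.73e-05 for HOXC8 and 0.00234 for SIX3. Among the other 5 genes past 2-fold were SOX9 (1.12), HOXB6 (1.07), FOXO1 (0.961) and HOXB9 (0.889). SOX9 directs cartilage and testis formation, and FOXO1 is a target of insulin signalling.

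At the low end stood 3 forkhead genes. FOXM1, which drives genes of the G2/M phase, had 0.0479, 0.0493 and 0.0499, the lowest TE of the group and 0.128 times the median (log2 difference -2.74 ± 0.05 SE, limma adjusted p = 1.40e-06). FOXF2, a factor of mesenchyme, had 0.0821, 0.0700 and 0.0758. FOXK2, which is broadly expressed, had 0.0924, 0.0868 and 0.0738. The replicates of these genes lay close together, and no value of any other gene of the group reached down to them. HOXA9 was next with 0.190, 0.179 and 0.169, which was lower than the median but not by over 2-fold in the test (limma treat adjusted p = 0.387). TBX18, a T-box gene of the heart and ureter, had 0.208, 0.201 and 0.195.

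Within the HOX genes TE spanned from 0.179 in HOXA9 to 2.74 in HOXC8, with a median of 0.446 over 17 genes. Of these, 7 (41.2%) were higher than the median of all values, near the 44.7% of all genes, 4 (23.5%) were lower, beside 44.6%, and 6 did not pass the test. The higher ones besides HOXC8 were HOXB6 with 0.979, 1.15 and 1.08, HOXA7 with 0.778, 0.908 and 1.03, and HOXB9 with 0.813, 0.881 and 0.974. They also held HOXA10 with 0.629, 0.684 and 0.782, HOXB7 with 0.853, 0.636 and 0.579, and HOXA13 with 0.563, 0.548 and 0.429. In each of these 7 genes all 3 replicates lay above the median of all genes. The lower ones besides HOXA9 were HOXB13 with 0.306, 0.361 and 0.338, HOXA11 with 0.314, 0.322 and 0.357, and HOXC9 with 0.224, 0.358 and 0.289. The calls of these 3 were lost when certain replicates were left out: HOXB13 without replicate 1 or 3 (adjusted p = 0.125 and 0.106), HOXA11 without replicate 1 or 2 (0.0815 and 0.0818) and HOXC9 without replicate 1 or 3 (0.0720 and 0.0686). The genes that did not pass lay around the median: HOXC4 (0.446, 0.372 and 0.600), HOXC6 (0.520, 0.355 and 0.462) and HOXB4 (0.354, 0.453 and 0.519) had widely spread replicates, while HOXB8 (0.467, 0.374 and 0.432), HOXA5 (0.393, 0.440 and 0.375) and HOXD11 (0.422, 0.385 and 0.367) were tighter. Genes of the 5′ end of the clusters, which act furthest back along the body axis, stood on both sides. HOXB9, HOXA10 and HOXA13 were among the higher and HOXA9, HOXC9, HOXA11 and HOXB13 among the lower, while HOXD11 did not pass.

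The SOX genes had a median TE of 0.897, with 5 of 6 higher and none lower, beside 44.7% and 44.6% of all genes. Besides SOX21, SOX11 and SOX9 these were SOX12, an HMG-box relative of SOX11, with 0.669 ± 0.0347 (SD, n = 3) and SOX2, the pluripotency factor, with 0.457 ± 0.0288, whose call was lost without replicate 3 (limma adjusted p = 0.0513). Of the CDS 30-mers of SOX2 and SOX21, 10.5% and 5.61% also occur in other genes, SOX1 among them. SOX4, the remaining relative of SOX11, had 0.404 ± 0.0206 and did not pass the test (limma adjusted p = 0.253). The 12 FOX genes had a median of 0.325, with 4 higher and 6 lower. FOXI3 (0.558) and FOXO3 (0.434) were among the higher besides FOXO1, and FOXJ2 (0.312), FOXN2 (0.305) and FOXD1 (0.226) were lower besides the 3 at the bottom. The call of FOXO3 was lost without any 1 of the replicates (adjusted p between 0.0566 and 0.115), and 74.3% of its CDS 30-mers also occur in other genes, mostly FOXO3B. FOXC1 (0.367) and FOXJ3 (0.337) did not pass. SIX4, a sine oculis homeobox gene, was lower with 0.256 ± 0.00424 (SD, n = 3). TBX3, a repressor of the limb and heart, was lower with 0.231 ± 0.00154, and TBX1, a gene of the pharyngeal arches, did not pass with 0.338 ± 0.0489.

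Partner genes were read beside these from lists, and their counts stand against 44.7% of all genes called higher and 44.6% called lower. The TALE cofactors of HOX proteins had 3 of 11 genes in the TE table, with 1 higher, PKNOX1 at 0.556, and 2 lower, among them TGIF2 at 0.0664. Of the EYA and DACH partners of the sine oculis proteins 3 of 6 were listed, with DACH1 higher at 0.759 and EYA3 and EYA4 lower at 0.261 and 0.0633. Of the LIM-domain partners of LHX proteins, SSBP3 (0.687), LDB1 (0.510) and LMO4 (0.460) were higher and SSBP2 (0.106) was lower. That list also held SSBP1 (3.13, higher), which is known as a mitochondrial DNA-binding protein and not as such a partner. The Polycomb genes, which keep HOX genes silent, had 6 higher and 6 lower of 12 listed, from RBBP4 at 1.75 and SUZ12 at 1.49 to PHC2 at 0.0891. The trithorax genes, which keep them active, had 4 higher and 2 lower of 8 listed, from DPY30 at 2.22 to MEN1 at 0.0696. Of 17 listed developmental factors outside these families, 7 were higher and 7 lower, with ZIC2 highest at 1.00 and PITX1 lowest at 0.0845.

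Occupancy along the mRNA was then examined. The occupancy table gives, for each codon, in-frame RPFs normalized by the authors for library size and divided by the TPM of the mRNA, with the replicates combined, so these values have no replicate error and were not tested. The mean CDS occupancy of the 70 mRNAs had a median of 0.0445, beside 0.0450 for all 9570 transcripts. HOXC8 was highest (0.370, from about 465 reads), followed by SOX11 (0.362, about 540 reads), HOXB5 (0.241, about 203 reads), SOX9 (0.234, about 1284 reads) and HOXB8 (0.163, about 454 reads). HOXB3 was lowest (0.00779, from 53 reads), preceded by SIX5 (0.00943, 181 reads), TBX2 (0.00993, 243 reads), LHX6 (0.0102, 27 reads) and FOXF2 (0.0110, 344 reads). The abundance of HOXC8 and SOX11 mRNA was 0.0569 and 0.0362 times that of the median transcript, while that of SOX4, HOXA9 and FOXM1, with lower occupancy, was 2.78, 2.76 and 1.79 times. Over the 35 genes in both tables the mean occupancy and TE were related with a Spearman coefficient of 0.751, and abundance and TE with a coefficient of -0.530. Both pairs share measurements, since TE and occupancy both divide RPFs by total RNA.

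**Figure D2:**
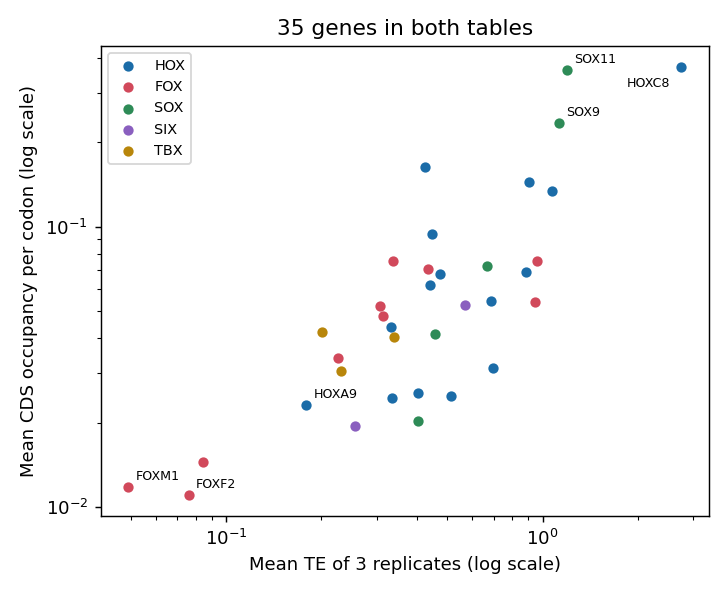
Mean CDS occupancy per codon against mean TE for the 35 genes in both tables, both on log scales and coloured by family. FOXM1 and FOXF2 lie at the lower left and HOXC8 at the upper right, at a TE of 2.74 and an occupancy of 0.370.

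In many of these mRNAs a few codons held much of the signal. A single codon held over 10% of the CDS occupancy in 35 of 70 (50.0%), beside 15.1% of all transcripts, and in 21 of 29 HOX mRNAs (72.4%). Reads were found on a median of 26.1% of codons, beside 56.6% for all transcripts. The lower depth of these mRNAs goes with this, and its part in the difference was not tested. The largest shares were at codon 333 of HOXD9 (46.6% of CDS occupancy), codon 191 of HOXB2 (42.3%, 32 reads), codon 247 of HOXB5 (40.4%), codon 62 of HOXD8 (37.1%, 32 reads), codon 171 of SIX2 (33.5%, about 154 reads) and codon 208 of HOXA6 (33.4%). The codons of HOXB5 and HOXA6 lie in 30-mers shared with other genes.

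These codons lay in the homeodomain. Of the 29 HOX mRNAs, 28 encode a homeodomain, found from the conserved tryptophan at its position 48. In 26 of the 28 the highest codon of the CDS was in the homeodomain, and the exceptions were HOXC4 (codon 34) and HOXC6 (codon 93). The homeodomain made up a median of 22.2% of codons and held a median of 67.0% of CDS occupancy. Its mean occupancy was a median of 6.50 times that of the rest of the CDS, from 1.84 times in HOXC4 to 215 times in HOXD9, and was above 1 in 28 of 28. In HOXD9, HOXD4 and HOXA6 the homeodomain held 97.8%, 98.1% and 95.2% of the occupancy. Without the highest codon of each CDS the median ratio was 4.94, and without the codons over which a 30-mer is shared with another gene it was 4.598. The reads behind the homeodomain values ranged from 29 in HOXC13 to about 1331 in HOXA10.

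**Figure D3:**
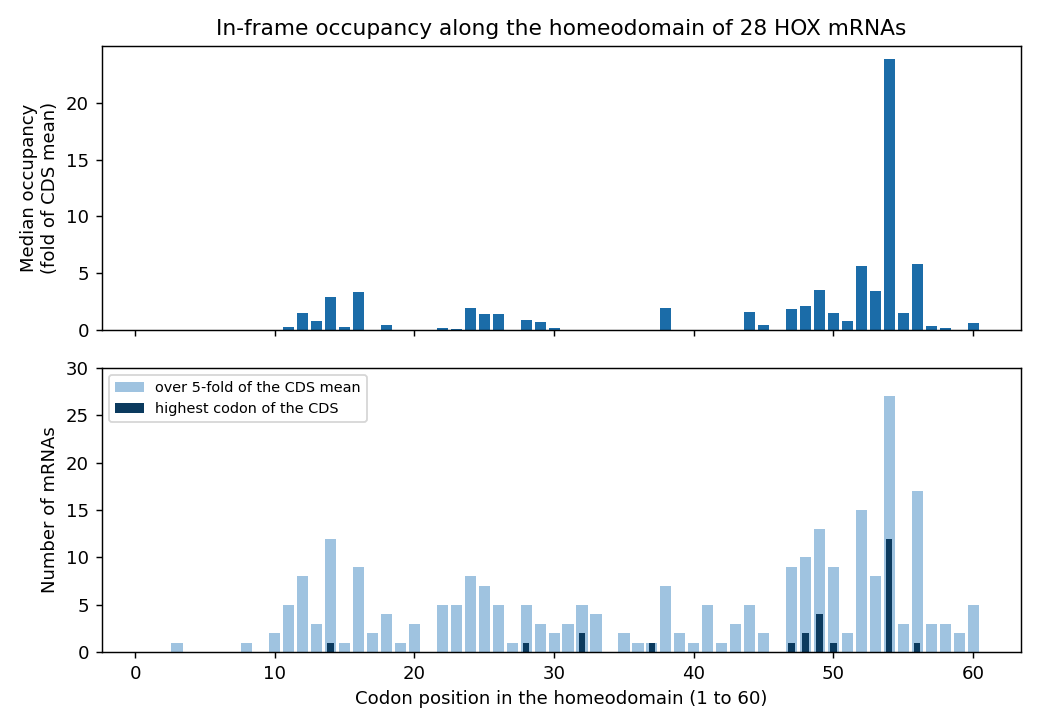
Median occupancy at each of the 60 homeodomain codons over 28 HOX mRNAs, as a multiple of the mean of the whole CDS (top), and the number of mRNAs in which the codon was over 5-fold of that mean or was the highest of the CDS (bottom). Position 54 stands out, with a median of 23.8-fold, 27 mRNAs over 5-fold and 12 in which it was the highest codon.

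Within the homeodomain the signal was sharply placed. Lining up the 28 homeodomains, which was done after the peaks had been seen, put the highest codon of the CDS at position 54 in 12 mRNAs and at position 49 in 4, and between positions 48 and 56 in 20. Position 54 had a median occupancy of 23.8 times the CDS mean, from 4.05 times in HOXB2, where 1 read fell on it, to 109 times in HOXB5, where the codon lies in 30-mers shared with other HOX genes, and 69.8 times in HOXA10, the highest of those without shared 30-mers. It was over 5-fold in 27 of 28, beside 4.93% of all codons of these mRNAs. The codons around it were far lower: the medians were 3.42 at position 53, 1.48 at position 55, 5.67 at position 52 and 5.83 at position 56. In the 18 genes in which no 30-mer over position 54 is shared with another gene, its median was 19.0 and it was over 5-fold in 17. This filter counts exact 30-mers only and leaves out overlapping genes on the same strand, such as HOXA9 for HOXA10. Whether reads of nearly identical stretches of other HOX genes fell on these codons was not tested.

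The best covered peaks at position 54 were those of HOXA10, at codon 389 with about 361 reads and 16.97% of CDS occupancy, and HOXA9, at codon 259 with about 361 reads and 22.5%, where a 30-mer is shared with another gene. HOXA11 (about 114 reads, 22.6-fold of the CDS mean), HOXB9 (about 109 reads, 24.4-fold), HOXB7 (about 83 reads, 28.2-fold) and HOXB6 (about 78 reads, 20.8-fold) followed among the genes whose position 54 is not shared. A peak there was also present in HOXC8 (15.04-fold, 31 reads) and HOXC4 (15.3-fold, 31 reads), whose highest codons lay elsewhere. The residue at position 54 was not the same in all. It is methionine in 24 of the mRNAs, with a median of 24.3-fold, and valine in HOXA13, HOXB13, HOXC13 and HOXD13, with 21.8-fold, 16.3-fold, 48.2-fold and 15.6-fold. Of 107 other methionine codons inside the same CDSs, 14 (13.1%) were over 5-fold, with a median of 0 and a highest value of 20.1-fold, which is above the position 54 value of some of these mRNAs. The part of the residue in the peak was not tested. The homeodomains of the other families, which carry other residues at this position, varied. LHX4 had 52.8-fold from 6 reads, PAX6 8.61-fold from 25 reads and SIX4 2.80-fold from 4 reads, while SIX2, LHX1 and PAX3 had no read on that codon, which allows up to 3 reads.

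Other DNA-binding domains were also denser than the rest of their CDS, by smaller medians. The ratio was above 1 in 7 of 7 SOX mRNAs (median 3.74), in 4 of 4 TBX mRNAs (3.92), in 3 of 4 sine oculis mRNAs (3.53), in 3 of 4 LHX mRNAs (2.39), in 1 of 2 PAX mRNAs with a homeodomain (1.81) and in 14 of 16 FOX mRNAs with reads outside the domain (2.60). The differences between families were not tested, since there is no replicate error. Among the forkhead genes FOXD2 (61.0) and FOXF1 (43.0) had the highest ratios and FOXL2 followed (13.6), and in FOXD4 all 70 reads lay in the forkhead domain. Sharing bears on these, as 77.8% of the CDS 30-mers of FOXD4 occur in its FOXD4L copies, and 51.9% of those in the FOXD2 domain occur in other genes. FOXJ3 (0.806) and FOXN2 (0.917) were below 1. FOXN3 (1.26) and FOXP1 (1.40) were low and FOXA1 (2.58), FOXP4 (3.04) and FOXO4 (3.36) were nearer the median, with 13.4% of FOXN3 30-mers shared with a pseudogene. SOX8 (10.4) and SOX13 (3.74) led or lay at the centre of their family, and in SOX13 the codon at position 2 of the HMG box held 18.4% of CDS occupancy from about 61 reads. SOX11 also had its highest codon at position 2 of the box (11.8%, about 64 reads).

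**Figure D4:**
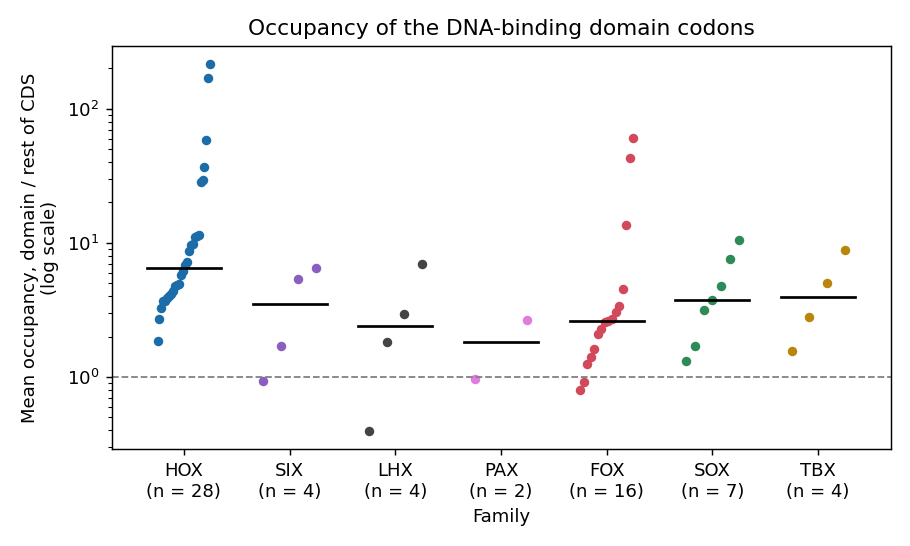
Ratio of mean occupancy in the DNA-binding domain to the rest of the CDS, 1 point per mRNA on a log scale, with the median of each family (bar) and the ratio of 1 (dashed line). All 28 HOX points lie above 1, with a median of 6.50, and FOXD4 is left out because no read lay outside its domain.

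Base composition moved with these differences. GC content was 55.6% in the homeodomain and 65.1% in the rest of the CDS (medians of 28 HOX mRNAs), lower in the domain in 27 of them, and across families it was lower in the domain in 61 of 66 mRNAs. The sine oculis mRNAs went the other way, with 65.8% in the homeodomain and 62.8% in the rest, and a lower value in the domain in 1 of 4. Over all matched mRNAs of the group, codons whose surrounding 30 bases were under 50% GC had reads in 56.7% of cases and a mean of 2.08 times the CDS mean, while those at 70% GC or above had reads in 8.21% and a mean of 0.157 times. The same fall was present in 8739 transcripts of the whole table, from 1.30 to 0.208 times, but codons at 70% GC or above were 34.0% of the codons of this group and 10.3% of all. Within each of these GC classes, which were chosen after the occupancy had been seen, mean occupancy relative to the CDS mean is given for codons inside the homeodomain, the position 54 peaks and shared stretches included, against the rest of the HOX CDSs. The means were 4.06 against 1.56 below 50% GC, 4.62 against 0.809 from 50 to 60%, 1.497 against 0.409 from 60 to 70%, and 0.284 against 0.0796 at 70% or above. The part of base composition in the homeodomain ratio was not tested.

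**Figure D5:**
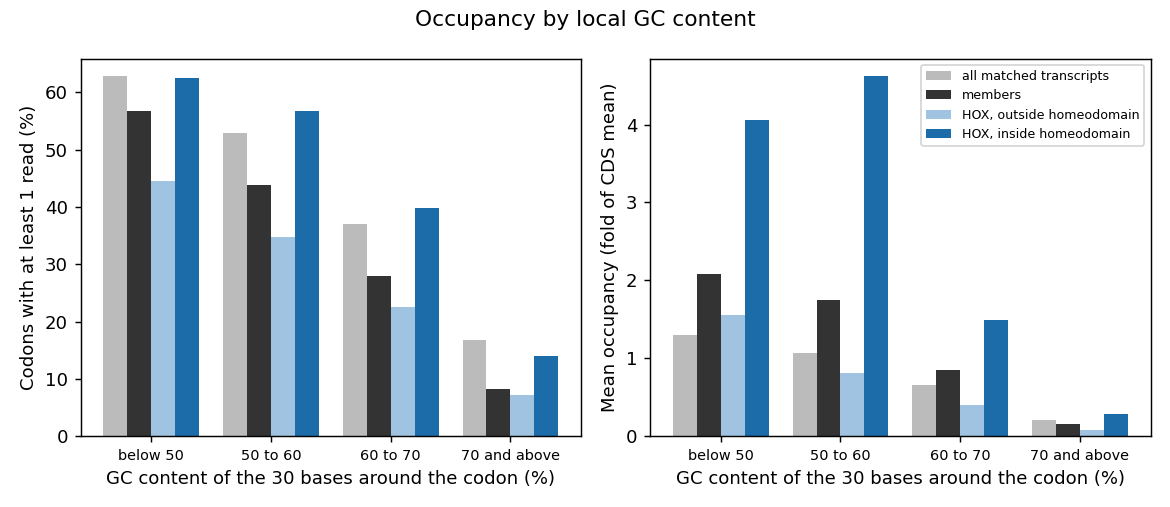
Percentage of codons with at least 1 read (left) and mean occupancy relative to the CDS mean (right), by GC content of the 30 bases around the codon, for all matched transcripts, the matched mRNAs of the group, and HOX mRNAs outside and inside the homeodomain. Every series falls from the middle classes to the class at 70% and above, and codons inside the homeodomain are higher than those outside it in each class.

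Long runs of 1 residue, for which these proteins are known and in some of which expansions cause malformations, carried few reads. There were 56 runs of at least 6 identical residues in 31 mRNAs, 466 codons in all, with 119 reads between them. No read was found in 33 of the 56, among them the 6 proline runs (as in HOXB4, with 15 prolines, HOXB2, HOXD3 and TBX1) and 14 of 20 alanine runs (as in HOXD13, FOXL2 and TBX1, with runs of 15, 14 and 15). HOXA13 has 4 alanine runs of up to 18 residues with 2 reads in all of them. The occupancy was above that of the rest of the CDS in 2 runs. These were the 9 aspartic acids of SOX11 at codons 225 to 233, at 6.64 times from 67 reads, and the 10 glycines of HOXC13, at 2.38 times from 4 reads. Median GC content around the runs was 82.1%. Other mRNAs with such runs were FOXD2, FOXF1, FOXF2, FOXJ2, FOXK2, FOXN3, FOXO1, HOXA10, HOXA11, HOXA9, HOXB3, HOXB7, HOXD4, HOXD9, SIX4, SIX5, SOX12, SOX4, TBX2 and TBX3.

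The ends of the CDS were compared next. The mean occupancy of the first 75 codons was lower than that of the last 75 in 47 of 67 mRNAs (70.1%), beside 50.4% of all transcripts, and in 25 of 27 HOX mRNAs. The median ratio of first to last was 0.366 over the group, 0.162 in HOX and 0.790 in FOX mRNAs and 1.52 in SOX mRNAs, beside 0.991 in all transcripts. With windows of 50 codons it was 0.161 in HOX, 0.424 in FOX and 1.52 in SOX mRNAs, beside 0.924 in all transcripts. The lowest ratios were those of HOXD9, HOXB2 and LHX6, with no read in the first 75 codons, then FOXF2 (0.00489) and HOXD4 (0.00491). The highest were PAX6 (21.9), the eye regulator, then FOXF1 (9.33), SOX2 (7.80), SIX2 (7.37) and LHX1 (5.25). Of these, FOXF1 turned to 0.686 when the windows were 50 codons. SOX2, SIX2 and LHX1 then had 4.77, 2.14 and 6.67, and PAX6 had no value. HOXC4 (1.79) and HOXD3 (4.19) were the HOX mRNAs with more reads at the start. The part of domain position and of GC content in this ratio was not tested.

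In-frame reads in the 5′UTR were few. None was found in 19 of 70 mRNAs, beside 2189 of 9570 for all transcripts. The median ratio of 5′UTR to CDS occupancy was 0.0530, beside 0.0286 for all transcripts, and it fell to a median of 0.0146 without the highest 5′UTR codon of each mRNA, beside 0.0108 for all transcripts. Over the last 17 codons of the 5′UTR the median of the group was 0, beside 0.0286 for all transcripts. This did not hold throughout, as the median was 0.0417 in HOX mRNAs and 0 in FOX and in SOX mRNAs. It was 0.0324 in mRNAs of the group with a TE value and 0 in those without. Their median CDS reads were 844 and 174, and the part of depth was not tested. The highest ratios were those of HOXA13 (1.38, from 9 reads), FOXO4 (0.862, 41 reads), HOXA4 (0.816, 9 reads), HOXD3 (0.742, 10 reads) and TBX2 (0.659, 21 reads). They rest on few reads, and in TBX2 20 of them lay 3 codons before the start codon. Without the highest 5′UTR codon the ratios were 0.629 in HOXA13, 0.653 in FOXO4, 0.408 in HOXA4, 0.510 in HOXD3 and 0.0493 in TBX2. The 5′UTR of HOXA13 has 6 codons, and its ratio was 0 without the 5 codons next to the start. SOX4 differed in depth. Its 5′UTR of 261 codons held about 504 in-frame reads on 73 codons, beside 33 codons in TBX3, the next, with a ratio of 0.373. FOXN2 and FOXM1, a pair of the forkhead genes with lower TE, had 106 and 104 reads with ratios of 0.285 and 0.541, and TBX3 had 94 reads with 0.187.

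The shares and ratios given above for several mRNAs rest on few reads. Under 100 CDS reads were recovered for 9 of the 70, among them HOXD8, LHX8, FOXD4, HOXC13, LHX4, HOXB2, LHX6 and HOXB3. PAX3, PAX9, HOXA3, HOXC5, FOXA1 and SOX8 had between 125 and 448. Annotated HOX genes also overlap, since HOXC4 (chr12:54410715-54449814) spans HOXC5 (chr12:54426834-54429145), so reads in a stretch that both annotate cannot be told apart. Shared 30-mers cannot show whether the CDS of HOXC4 holds such a stretch, since overlapping genes on the same strand were left out.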

How the data were processed

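Ribosome-protected fragments (RPFs) and total RNA of HEK293 cells were measured in 3 RPF and 3 total RNA libraries. Nothing in the labels says that the replicates came from separate cultures, so p-values measure only the spread between these samples. The submitters' processing notes name hg19, cutadapt 1.16, Bowtie 1.1.2, TopHat2 2.1.1 and HTSeq 0.9.1. TE was deposited by the authors for each replicate with no formula stated. The deposited TE values were read here as a linear ratio of RPF to total RNA by the authors, on which the folds depend. The occupancy table, a signal, was deposited by the authors with replicates combined, as in-frame RPFs per codon normalized for library size and TPM. Neither holds counts. Reads were recovered from the steps of the occupancy values, and values above 60 steps gave approximate reads. On simulated data the recovered totals were first held to within 2% of the truth, which too few transcripts met, and the margin was then widened to 5%, so read numbers are approximate. In 31 transcripts a broken list of CDS values was rejoined, none of them in the group.

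TE was tested as log2(TE + 0.01) minus the median of all values, with limma 3.58.1 (R 4.3.3) over 8121 genes with Benjamini-Hochberg adjustment at 0.05, and with limma treat for over 2-fold. A fold on this scale understates the change of low genes. Genes were matched to GENCODE 44 on GRCh37 by symbol and CDS length (75 of 77, not FOXD1 and FOXI3), and sequences, domains and shared 30-mers were read from it. Only exact 30-mers were counted as shared, and overlapping genes on the same strand were left out of that count. Domain windows were 60 codons (homeodomain, with the conserved tryptophan as position 48), 90 (forkhead), 75 (HMG box) and 150 (T-box). Occupancy has no replicate error and was described by medians beside all transcripts. Genes of the group are named at least once, except a few that are not reported here. Replicate values are given for the HOX genes and the 5 highest and 5 lowest TE (no gene had a replicate range over 1 on the log2 scale), and occupancy for the 5 highest and 5 lowest CDS means, the 5 highest 5′UTR to CDS ratios, the 5 highest and 5 lowest first to last ratios, and genes with a run or a domain. The members, lists and tests were chosen with earlier results of these data known, and position 54, GC classes and the methionine comparison were examined after the occupancy values had been seen. Alternatives were other pseudocounts, filters, windows, leaving out each replicate and a replicate block.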

Additional observations from a re-analysis of the deposited data

How the results depend on the processing

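The counts of called genes kept within 1.5 times under every alternative run. Leaving out 1 replicate gave 17 to 21 higher, 11 to 12 lower, 8 to 11 over 2-fold above, 3 to 3 over 2-fold below, and a median TE of 0.4152 to 0.4438. Pairing RPF and total RNA is already inside each TE ratio, and the replicate block left 19 higher, 13 lower, 10 above and 3 below. A pseudocount of 0.1 gave 7 over 2-fold above in place of 10. Of the single genes, HOXA5 and HOXD11, neither called, changed sign when 1 replicate was left out: their log2 differences ranged from -0.0029 (without replicate 2) to 0.1244 and from -0.0322 (without replicate 1) to 0.0787. Leaving out a replicate lost the calls of 5 genes (FOXO3, HOXA11, HOXB13, HOXC9 and SOX2) in 10 combinations of gene and replicate, and 6 genes each gained a call once (FOXJ3, HOXB4, HOXB8, HOXC4, HOXC6 and TBX1).

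For occupancy, a change of over 10% was counted as a move. The median CDS occupancy of 0.0445 was 0.0382 without the highest codon and 0 as a median over codons, since most codons had no read. The 5′UTR to CDS ratio of 0.0530 was 0 over the last 17 codons (0.0286 in all transcripts), 0.0146 without the highest 5′UTR codon and 0.0398 without the 5 codons next to the start. The ratio of first to last 75 codons of 0.366 was 0.295 with 50 codons, 0.428 without 5 codons at each end and 0.318 without the highest codon of each window. The homeodomain ratio of 6.50 was 7.68 with 10 more residues on each side and 8.97 without the first and last 15 codons. Chosen after seeing the data, it was 4.94 without the highest codon and 4.598 without codons in shared 30-mers. All stayed above 1. The cause of these moves was not tested. Depth limits the shapes of the 9 mRNAs under 100 reads.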

Other observations

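A few single values lie outside the comparisons above. In PAX9, a gene of tooth and thymus development, 1 codon lying 67 codons before the start codon held 88.5% of the 5′UTR occupancy, from about 72 of 83 reads. In HOXA5, 24 of 27 5′UTR reads lay 1 codon before the start codon, and in HOXB7 10 of 20 did. In-frame 3′UTR reads were absent from 35 of the 70 mRNAs, beside 4104 of 9570 for all transcripts, and were most frequent in HOXB7 (36), HOXB6 (19), SOX4 (18) and HOXA11 (17). LHX6 had 15 of them beside 27 CDS reads.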
